A study of Mus musculus with 12 samples.

Results

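The growth hormone response of wild-type mouse embryonic fibroblasts (MEFs), the connective tissue cells that grow out of embryos, was compared with that of MEFs without Stat5 on Affymetrix expression arrays. The contrast was taken gene by gene as the mean of the hormone-treated wild-type arrays minus the untreated ones, less the same difference in the Stat5-null cells, and it used 8 of the 12 arrays. Its groups were C57BL/6 wild-type MEFs (WT) and C57BL/6 Stat5-null MEFs (KO), each left unstimulated or stimulated with growth hormone for 120 minutes, with 2 arrays per group that the series calls biological duplicates. The other 4 arrays held Stat5-null MEFs into which a STAT5A vector had been brought by retrovirus (S5), without and with the hormone. Their levels do not enter the contrast. They were fitted with the other arrays, so they share the estimate of spread and bear on which genes pass. No label names a vehicle control, an empty vector, a hormone dose or the embryos behind a culture. Each genotype is its own cell preparation, so genotype and preparation cannot be told apart, and the p-values measure only the spread between these duplicate arrays.

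Growth hormone binds a receptor at the cell surface, and the receptor-bound kinase JAK2 then phosphorylates STAT5A and STAT5B. The phosphorylated pair enters the nucleus and binds palindromic DNA elements near target genes, among them the feedback inhibitors of the SOCS family that dampen the receptor. In liver this route drives Igf1, while in fibroblasts the SOCS genes and the repressor Bcl6 are the usual markers of STAT5 activity.

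The WT response differed from the KO response in the STAT5 feedback genes Cish and Socs2, in the receptor genes Fas, Cd40 and Il15ra, and in genes such as Saa3 and Il1b, which were read in WT only. Values are on a log2 scale, and a level below 4 was treated as not read. Of 18194 genes, 10706 (58.8%) had a readable level in both genotypes, and 10271 of those stood at 4 or above on all 8 arrays. A further 619 genes were read only in WT, 257 only in KO, and 6612 in neither. The interaction, the difference between the responses, passed an adjusted p of 0.05 for 231 genes (1.27%). It was above 0, a higher change in WT than in KO, for 154 genes (0.846%), and below 0 for 77 (0.423%). Among the genes read in both genotypes, 76 were higher (0.71%) and 47 lower (0.439%). Among those read in WT only, 90 of 619 passed (14.5%), 67 higher and 23 lower. For these 90 the KO response is below what the array reads, so the result shows a WT response and not a KO level. The remaining calls were 2 genes read in KO only and 16 read in neither.

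**Figure D1:**
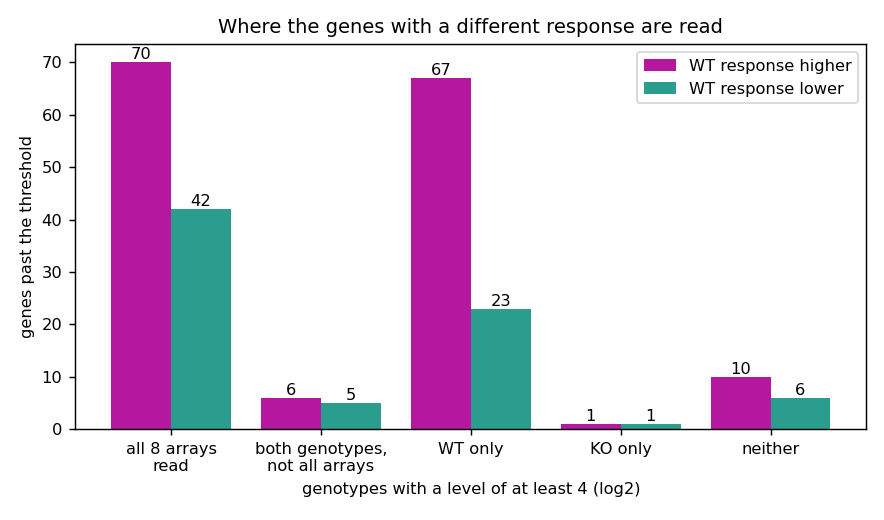
Number of genes past the threshold of the interaction (y axis) by the genotypes in which the gene reached a log2 level of 4 (x axis), with higher WT responses in purple and lower ones in green. The bars for genes read on all 8 arrays stand at 70 and 42, and those for genes read in WT only at 67 and 23.

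In these bulk cultures, fewer cells of a type and less RNA per cell cannot be told apart. Of 16 macrophage markers fixed as a list, 13 to 15 were read on each WT array and 5 or 6 on each KO array. Their mean level lay between 9.24 and 10.58 on the WT arrays and between 3.83 and 4.22 on the KO arrays. Untreated WT replicate 1 held the 9.24, below the 10.56 to 10.58 of the other WT arrays. Ptprc, the leukocyte marker CD45, stood at 8.39, 10.38, 10.17 and 10.26 on the WT arrays and between 2.41 and 2.54 on the KO arrays, while Itgam, another leukocyte marker, was not read on any of the 8 arrays. Fibroblast markers averaged 12.85 to 13.31 on every WT and KO array. Without untreated WT replicate 1 the interaction called 312 genes, of which 65 were higher and 34 lower among genes read in both. The part of these markers in the results below was not tested. Gapdh and Actb are read by separate control probe sets at their 3′ and 5′ ends, and the log2 difference between the ends is a measure of RNA or label length. For Gapdh it was 1.22 and 1.04 on the untreated and 0.93 and 0.89 on the treated WT arrays, and 0.94 to 1.11 on the KO arrays. For Actb it was 3.13 and 3.0 and then 2.83 and 2.55 in WT, and 2.71 to 3.07 in KO. In both genes the treated WT arrays lay below the untreated ones, and the part of this in the results was not tested.

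The STAT palindrome TTCNNNGAA, which reads the same on both strands, was found in the promoters of several called genes. Shown are 4 of these, Cish, Bcl6, Irf1 and Fas, picked as examples among genes with a match. Plscr1, Gbp7 and Tnip1 also had a match and are not shown. Il15ra, Stx11, Arhgap20 and Wnt9a, which were also called, had none, and no promoter sequence was at hand for Socs2. The 4 promoters were taken from RefSeq on GRCm38.p6. They run from 250 bases before the annotated start to 20 bases after it. Each is written 5′ to 3′ on the gene's strand with the palindrome in capitals. Cish lies on the plus strand at chr9:107296409-107296678, Bcl6 on the minus strand at chr16:23981264-23981533, Irf1 on the plus strand at chr11:53769764-53770033 and Fas on the plus strand at chr19:34290409-34290678. Bcl6 and Irf1 each have 2 annotated starts, of which the one with the most matches is shown.
Cish: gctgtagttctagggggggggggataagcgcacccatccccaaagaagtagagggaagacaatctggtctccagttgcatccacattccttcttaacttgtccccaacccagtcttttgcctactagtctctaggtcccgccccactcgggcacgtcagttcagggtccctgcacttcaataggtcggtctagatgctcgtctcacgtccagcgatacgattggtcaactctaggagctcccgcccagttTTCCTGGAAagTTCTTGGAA
Bcl6: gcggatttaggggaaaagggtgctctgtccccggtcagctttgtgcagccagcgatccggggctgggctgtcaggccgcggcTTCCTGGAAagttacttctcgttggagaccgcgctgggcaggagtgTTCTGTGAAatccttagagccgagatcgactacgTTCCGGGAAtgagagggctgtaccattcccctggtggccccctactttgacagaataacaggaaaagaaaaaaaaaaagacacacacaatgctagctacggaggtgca
Irf1: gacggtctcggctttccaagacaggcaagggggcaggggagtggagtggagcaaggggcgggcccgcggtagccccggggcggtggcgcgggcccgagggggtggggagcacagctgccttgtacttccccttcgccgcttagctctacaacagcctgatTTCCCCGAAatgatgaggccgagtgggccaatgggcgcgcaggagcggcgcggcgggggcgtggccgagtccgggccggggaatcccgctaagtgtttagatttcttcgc
Fas: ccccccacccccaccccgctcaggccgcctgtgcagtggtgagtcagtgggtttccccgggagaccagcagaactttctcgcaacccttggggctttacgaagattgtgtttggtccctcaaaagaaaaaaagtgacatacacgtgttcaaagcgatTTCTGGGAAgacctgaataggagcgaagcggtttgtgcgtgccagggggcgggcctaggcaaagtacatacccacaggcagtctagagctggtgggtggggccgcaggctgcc
In Cish both matches lie just after the annotated start, at bases 1 and 12. In Bcl6 the 3 matches begin at -168, -122 and -88, in Irf1 the match begins at -90 and in Fas at -93. A match is a run of letters, and no binding was measured on these arrays.

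Cish and Socs2, inhibitors of cytokine receptors that STAT5 itself induces, had the largest differences among the genes read on all 8 arrays. Cish stood at 4.84 and 5.17 on the untreated WT arrays and at 8.22 and 8.07 with the hormone, against 4.99 and 4.76 and then 4.32 and 4.69 in KO. The treated WT arrays lay above every other array of the contrast, and the untreated arrays of both genotypes overlapped. Cish rose 8.8-fold in WT, and the interaction was 3.51 (SE 0.22, limma adjusted p = 0.000443). The level in KO differed from untreated by -0.37, which did not pass (adjusted p = 0.515). Socs2 went from 7.14 and 7.28 to 11.44 and 11.42 in WT, and from 4.69 and 4.64 to 5.28 and 5.40 in KO. The genotypes did not overlap, and untreated KO cells were already 2.54 lower on the log2 scale (KO minus WT -2.54, adjusted p = 1.22e-05; 27.1% of all genes passed in that comparison). Socs2 rose 18.7-fold in WT and the interaction was 3.55 (SE 0.18, adjusted p = 0.000104). Both KO arrays with the hormone lay above both without it, a 1.6-fold difference that did not pass (adjusted p = 0.104). A second Socs2 probe set was read in WT with the hormone only (group mean 7.71) and gave 5.09, while the group means of the other 4 lay below 4.

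Bcl6, the transcriptional repressor, was the counterpart on the lower side. It stood at 12.56 and 12.64 in untreated WT cells and 10.74 and 10.71 after the hormone, and at 12.16, 12.37, 12.28 and 12.26 on the 4 KO arrays. The treated WT arrays lay below all others by more than any duplicate pair differed. Bcl6 fell 3.67-fold in WT, and the interaction was -1.88 (SE 0.14, adjusted p = 0.000965). With the mean of its probe sets, of which the second was not read, it was -1.79 and did not pass (adjusted p = 0.211). The KO response itself was 0.00.

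**Figure D2:**
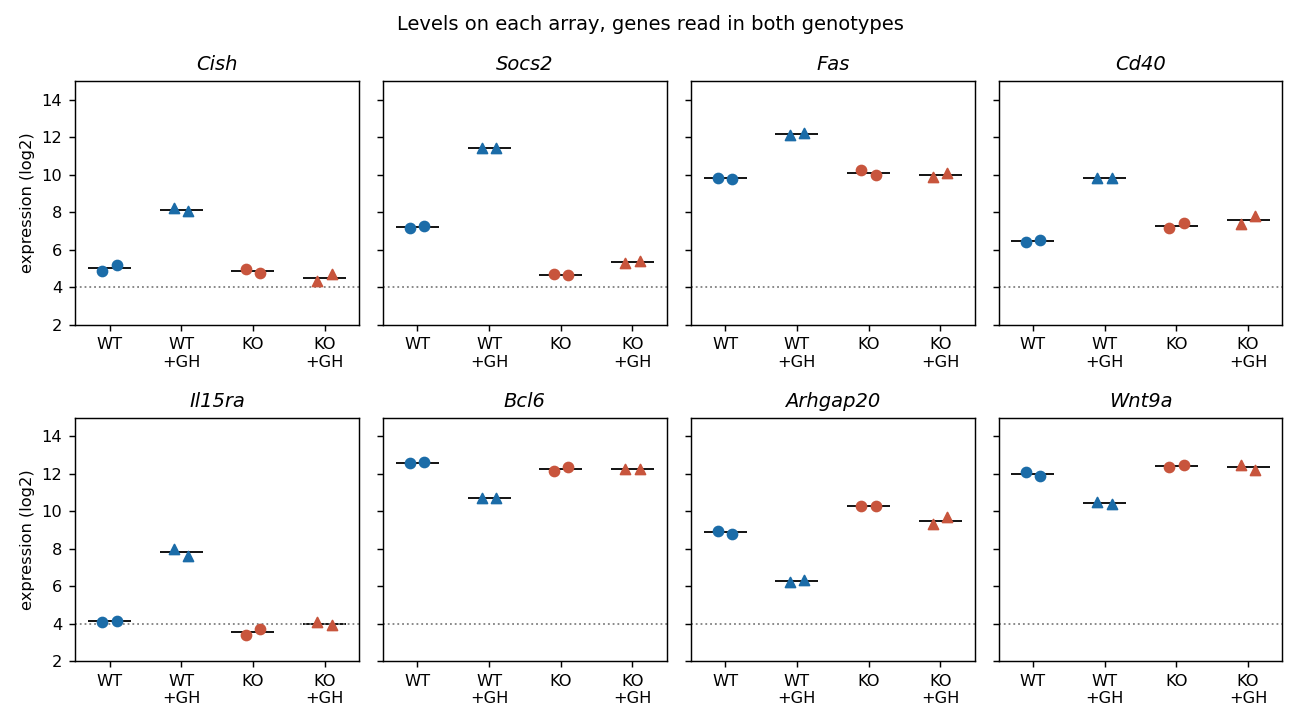
Level on each array (y axis, log2) for 8 genes read in both genotypes, by group (x axis), with circles for untreated and triangles for hormone-treated arrays, bars for group means and a dotted line at 4. In Cish, Socs2, Fas, Cd40 and Il15ra the treated WT arrays stand above all others, and in Bcl6, Arhgap20 and Wnt9a below them.

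Of 27 measured genes of growth hormone receptor signalling, 4 passed with a higher WT response (0.846% of all genes) and none with a lower one (0.423%), and their median interaction was -0.01 against -0.02 over all genes. Besides Cish and Socs2 these were the deleted genes themselves. Stat5a stood at 11.51 and 11.45 untreated and at 12.11 and 12.39 treated in WT, and between 2.38 and 2.47 on the KO arrays. Stat5b stood at 9.04, 8.98, 9.33 and 9.39 in WT and between 1.93 and 2.01 in KO. Both are therefore read in WT only, and their calls (0.80 with adjusted p = 0.0238, and 0.37 with adjusted p = 0.0325) describe a rise in WT. The Stat5a call was kept only in the fits without untreated WT replicate 1 or without either treated WT array (adjusted p 0.00113 to 0.0739 over the 12 fits that leave out 1 array). That of Stat5b was kept in 2 of those 12 fits, without untreated or treated WT replicate 1 (0.042 to 0.085). Ghr, the receptor, lay between 13.90 and 14.04 on all 8 arrays, and its interaction was 0.01 (95% interval -0.14 to 0.16). Jak2, the receptor's kinase, changed by 0.42 in WT and 0.27 in KO, an interaction of 0.14 (interval -0.09 to 0.37, adjusted p = 0.881). Socs3, a further feedback inhibitor, had 1.18 with a wide interval of 0.19 to 2.16 (adjusted p = 0.387).

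Among 26 measured STAT5 target genes described in other cells, 2 were higher (Cish and Socs2) and 1 lower (Bcl6). Over all genes 0.846% were higher and 0.423% lower. The median of these targets was 0.07, against -0.02 over all genes. Pim1, a survival kinase gene, stood at 11.52, 11.38, 12.53 and 12.40 in WT and 10.86, 10.18, 10.21 and 10.56 in KO. The treated WT arrays were the highest, and the interaction of 1.15 did not pass (adjusted p = 0.2), but passed without untreated KO replicate 2 (adjusted p = 0.0301). Igf1 had an interaction of 0.55 (interval -0.35 to 1.45, adjusted p = 0.89).

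Fas, the death receptor of the TNF receptor family, stood at 9.84 and 9.76 and then 12.13 and 12.23 in WT, against 10.23, 9.96, 9.87 and 10.08 in KO. The KO arrays overlapped with each other and lay near the untreated WT arrays. Fas rose 5.19-fold in WT, with an interaction of 2.50 (SE 0.15, adjusted p = 0.000364). Cd40, a related receptor that carries the helper signal of T cells, went from 6.44 and 6.52 to 9.82 and 9.82 in WT and stood at 7.15, 7.42, 7.36 and 7.79 in KO. Untreated KO cells thus lay 0.81 above WT cells (adjusted p = 0.00467), and the interaction was 3.06 (SE 0.20, adjusted p = 0.000468). A second Cd40 probe set, read in both genotypes, gave 3.49. The third gave 3.06, but its group mean reached 4 in treated WT only (5.76). It was 1.79 in untreated WT, and 1.76 and 2.67 in untreated and treated KO. Il15ra, which presents interleukin 15 to neighbouring cells, stood at 4.11 and 4.17 and then 8.01 and 7.65 in WT. In KO it stood at 3.41, 3.72, 4.11 and 3.93, so that 1 KO array just reached the bound. Its interaction was 3.23 (SE 0.20, adjusted p = 0.000352), or 3.67 with group means below 4 set to 4.

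Il15, the ligand of that receptor, went from 6.41 and 6.71 to 8.11 and 7.87 in WT and from 7.04 and 6.87 to 6.55 and 6.29 in KO. Both duplicates rose in WT and neither did in KO, and the interaction was 1.97 (adjusted p = 0.0244), a call kept in 5 of the 12 fits without 1 array, those without S5 replicate 1 or 2, untreated WT replicate 2, treated WT replicate 2 or treated KO replicate 1 (adjusted p up to 0.0959). Il15 and the genes of the next paragraph were chosen after their values were seen, apart from Lif, Dusp5, Irf1, Ifi47, Nfkbie, Ifitm1 and Syk. Lif, a cytokine of the interleukin 6 family, stood at 8.20, 7.46, 11.04 and 10.95 in WT and at 7.81, 7.46, 7.77 and 8.13 in KO (interaction 2.84, adjusted p = 0.0114). Dusp5, a phosphatase that inactivates ERK, stood at 6.06, 5.82, 8.15 and 8.33 in WT and at 6.69, 5.90, 5.89 and 5.63 in KO (2.83, adjusted p = 0.0104). In both genes the treated WT arrays lay above all others. The KO arrays with and without the hormone overlapped in Lif, while in Dusp5 both treated KO arrays lay below both untreated ones, by 0.53 on average, which did not pass (adjusted p = 0.541). Both calls were lost in a fit of the 4 WT and KO groups alone (adjusted p = 0.0713 for Lif and 0.0708 for Dusp5).

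Irf1, a transcription factor of the interferon response that STAT proteins induce, stood at 7.45, 7.58, 10.56 and 10.64 in WT and at 7.32, 6.66, 7.86 and 7.73 in KO. All arrays with the hormone were above those without it, in both genotypes. Irf1 rose 8.51-fold in WT, while its 1.74-fold difference in KO did not pass (adjusted p = 0.201), and the interaction was 2.29 (SE 0.28, adjusted p = 0.0117; 0.0684 in the fit of the 4 groups alone). Ifi47, an interferon-inducible GTPase, had 2.26 (adjusted p = 0.0105), and Plscr1, an interferon-inducible scramblase, 2.0 (adjusted p = 0.0135; 0.06 without untreated KO replicate 1). Gbp7, a guanylate-binding protein, had 1.93 (adjusted p = 0.0353), kept only in the fits without untreated WT replicate 2 or without either untreated KO array. Ifitm1, an antiviral membrane protein, and Syk, the kinase of immune receptors, had values of 2.95 and 2.78 (adjusted p = 0.035 and 0.036). The Ifitm1 call was kept only without S5 replicate 1 or 2 or without treated KO replicate 2 (adjusted p up to 0.127). That of Syk was kept only without S5 replicate 1 or 2 or without untreated WT replicate 2 (adjusted p up to 0.102).

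A smaller number of genes kept the call in every alternative fit that tested them, leaving aside the minimum difference of 1, which S1pr3 and Ifrd1 do not reach. Among the 76 higher genes read in both these were 14: Cish, Socs2, Fas, Cd40, Il15ra and, chosen after their values were seen, Cebpd, Chst15, Gem, Ifrd1, Rnf19b, S1pr3, Slc7a2, Stx11 and Tnip1. Cebpd, the transcription factor C/EBP delta, stood at 11.13, 10.98, 12.62 and 12.56 in WT and between 10.52 and 10.87 in KO (interaction 1.71, adjusted p = 0.00165). Slc7a2, a transporter of arginine, rose 4.02-fold in WT with 2.10, and Stx11, a syntaxin of vesicle fusion, 6.48-fold with 2.15. Smaller but tightly measured were S1pr3, a receptor of sphingosine 1-phosphate (0.62, SE 0.05), and Rnf19b, a ubiquitin ligase (1.22, SE 0.09). Leaving out each array in turn, 30 of the 76 kept the call in all 12 fits. In the fit of the 4 groups alone 30 of the 76 higher and 10 of the 47 lower genes kept the call. With array weights 27 and 17 kept it. Many genes described here lost it in the first of these fits, among them Ifi47 (0.0559), Palmd (0.0566), Ccl4 (0.0611), Gpm6a (0.0649), Clec4e (0.0693), Prdm8 (0.087), Lfng (0.0916) and Map3k4 (0.0963). Others lost it in the second, among them Hivep3 (0.0583), Plscr1 (0.0604), Nfkbie (0.0771), Birc3 (0.0867) and Relb (0.142).

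The NF-kB and inflammation list held 38 measured genes, of which 21 had a higher WT response (0.846% of all genes did) and none a lower one. The median interaction was 2.01 against -0.02 over all genes. This list was chosen with earlier results of these data known, so its counts are descriptions only. NF-kB is the transcription factor family behind most inflammatory cytokines, held in the cytoplasm by inhibitors whose own genes it induces. Of the 21, 8 were read in both genotypes: the subunit genes Rela and Relb, the inhibitor genes Nfkbib, Nfkbie and Tnip1, the ubiquitin ligase gene Birc3, and the cytokines Lif and Csf1. Nfkbie stood at 8.76, 8.71, 12.73 and 12.73 in WT and at 7.75, 7.85, 8.93 and 9.39 in KO, an interaction of 2.63 (SE 0.31, adjusted p = 0.0104). Relb stood at 7.0, 7.0, 10.37 and 10.60 in WT and at 6.66, 6.35, 8.18 and 8.20 in KO. It rose in both genotypes, 11.2-fold and 3.22-fold, and the interaction was 1.80 (adjusted p = 0.0198). The Relb call was lost without treated WT replicate 2, untreated KO replicate 1 or either treated KO array (up to 0.0707). Rela, Nfkbib and Csf1 had 1.08, 1.23 and 0.90 and kept the call in 2 or 3 of the 12 fits, and Birc3 (1.97) in 7.

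The promoters of Nfkbie and of Cxcl10, a chemokine gene that rose in both genotypes, are shown with the NF-kB motif in capitals, as examples among genes with a match. They are again from RefSeq on GRCm38.p6, Nfkbie from the plus strand at chr17:45555450-45555719 and Cxcl10 from the minus strand at chr5:92348870-92349139, searched on both strands.
Nfkbie: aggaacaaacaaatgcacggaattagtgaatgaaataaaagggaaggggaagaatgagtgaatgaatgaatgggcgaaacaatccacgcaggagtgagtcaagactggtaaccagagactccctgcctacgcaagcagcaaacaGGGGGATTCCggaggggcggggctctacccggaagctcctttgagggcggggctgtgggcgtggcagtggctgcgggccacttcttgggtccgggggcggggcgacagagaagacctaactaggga
Cxcl10: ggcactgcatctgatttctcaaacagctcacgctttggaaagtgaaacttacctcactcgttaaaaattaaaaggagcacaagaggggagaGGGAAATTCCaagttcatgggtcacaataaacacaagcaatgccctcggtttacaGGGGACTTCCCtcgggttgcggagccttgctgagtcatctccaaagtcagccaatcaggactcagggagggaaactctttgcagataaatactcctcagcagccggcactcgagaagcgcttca
The match in Nfkbie begins at -106. Of the 3 in Cxcl10, 1 begins at -159 and the other 2 overlap at -104 and -103. The KO change of Nfkbie was 1.36 and did not pass (limma adjusted p = 0.07). Among genes named below that rose in both genotypes, Tnfaip3, Nfkbia, Cxcl1, Cxcl2 and Bcl3 also had a match, and Hk2, Hivep3 and Mllt6 had none. The part of the motif in these changes was not tested.

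The same list also showed what KO cells did. Of its 24 genes read in both genotypes, 23 rose in WT and 8 rose in KO. Among all 10706 genes read in both, 420 rose in WT and 36 in KO. Over all genes tested the shares were 3.06% and 0.225%. Cxcl10 stood at 8.91, 8.90, 13.78 and 13.82 in WT, and went from 2.81 and 2.42 to 6.16 and 6.37 in KO. Its rise was 29.7-fold in WT and at least 4.8-fold in KO, where the untreated level was not read. The interaction of 1.25 (2.63 with levels under 4 set to 4) had an adjusted p of 0.0328 and was kept only without either untreated KO array or treated KO replicate 2. Tnfaip3, the inhibitor A20, rose 28.2-fold in WT and 6.47-fold in KO, and its difference of 2.13 did not pass (interval 1.13 to 3.13, adjusted p = 0.0843; 0.0482 without untreated WT replicate 2). Ccl2, a monocyte chemokine, stood at 12.71, 12.53, 14.57 and 14.56 in WT and at 10.48, 10.11, 12.45 and 12.40 in KO. It rose 3.85-fold and 4.4-fold, and the difference of -0.19 had an interval of -0.68 to 0.30. For Nfkbia, the main inhibitor of NF-kB, the difference was 0.17 on the probe set of highest mean (interval -0.03 to 0.37). Its other probe sets gave 0.48, 1.04, 1.34 and 2.31, and the mean of all gave 1.07, which passed (adjusted p = 0.00607).

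**Figure D3:**
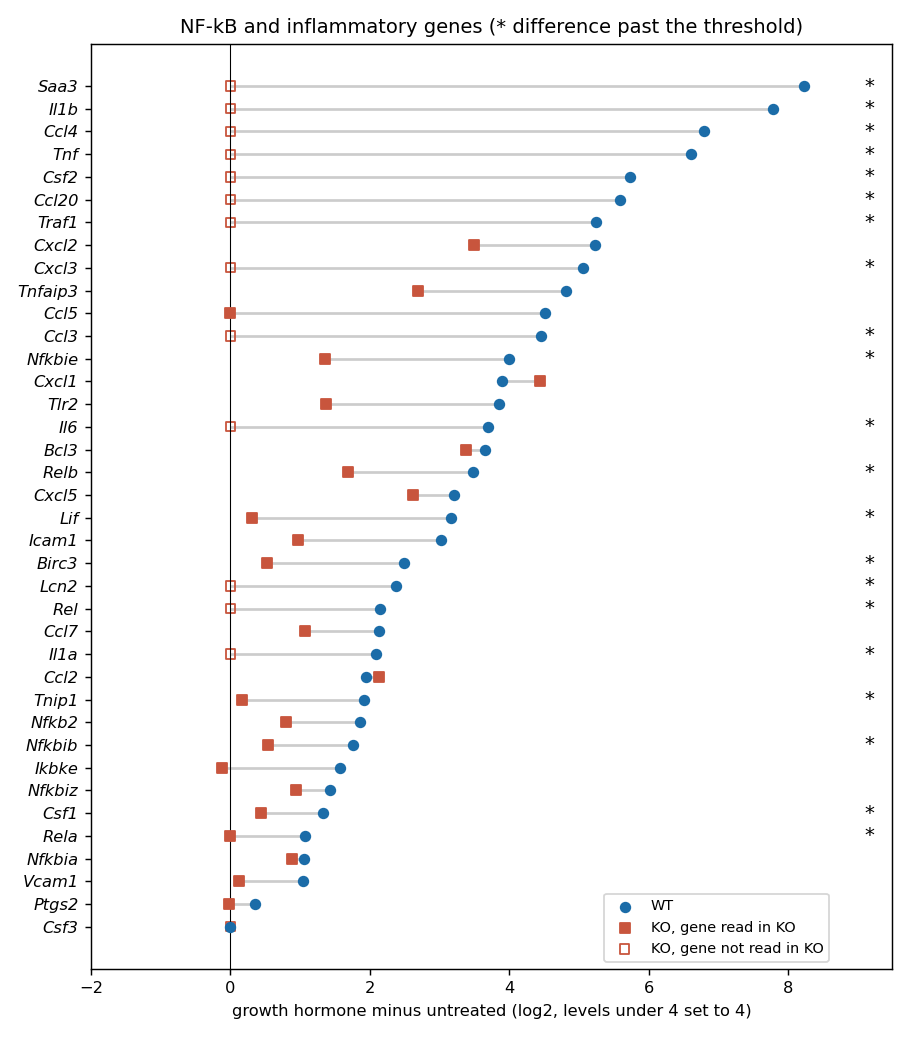
Hormone response (x axis, log2 with levels under 4 set to 4) of the 38 measured NF-kB and inflammatory genes, in WT (circles) and KO (squares, open where the gene was not read in KO). Grey lines join the genotypes, and the 21 genes with a star passed the threshold.

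Cxcl1, a chemokine, stood at 9.67, 8.91, 13.22 and 13.15 in WT and at 5.04, 3.39, 8.63 and 8.68 in KO. The interaction was -0.54, with an interval of -2.14 to 1.06. Both other Cxcl1 probe sets gave -3.45 and -2.43 (limma, adjusted p = 0.0083 and 0.041 over all probe sets), a smaller rise in WT than in KO. Their untreated KO means of 2.18 and 2.05 were not read, so these sizes rest on levels below 4. Whether the probe sets of this gene differ beyond that was not tested. Cxcl2 rose 37.7-fold in WT and at least 11.2-fold in KO, with 0.26 (interval -1.14 to 1.66). Cxcl5 had -0.89 (interval -1.68 to -0.11) and did not pass (adjusted p = 0.433), but passed without untreated WT replicate 1 (adjusted p = 0.00169). Bcl3, a nuclear IkB protein, rose 12.6-fold in WT and at least 10.4-fold in KO, with -0.32 (interval -1.69 to 1.04). Cxcl1, Cxcl2, Cxcl5, Bcl3, Ccl2, Nfkbia, Tnfaip3, Relb, Rela, Nfkbib, Csf1, Birc3 and Tnip1 were chosen after their values were seen.

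Over all genes, 56 passed in KO alone (0.308%), 41 higher and 15 lower (0.0824%), against 1092 in WT (6%), of which 535 were lower (2.94%). Of the 56, 45 were read in both genotypes and 33 also passed in WT in the same direction. For 29 of those 33 the difference between the genotypes did not pass. They include Hk2, the hexokinase of glucose uptake, which rose 1.95-fold in each genotype, with a difference of 0.00 (interval -0.36 to 0.37). The 4 that differed were Cxcl10, Relb, Hivep3 and Mllt6, all with the larger rise in WT. Hivep3, a zinc finger protein, stood at 7.82, 7.84, 10.55 and 10.53 in WT and at 6.00, 5.82, 7.27 and 7.32 in KO (interaction 1.33, adjusted p = 0.00791; 0.211 with the mean of its probe sets, of which the other 4 were not read). Mllt6, a chromatin protein, had 0.48 (adjusted p = 0.0326), kept only without S5 replicate 1 or 2.

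Opposite changes that passed in both genotypes were found for Gem and Cmah. Gem, a small GTPase of the RGK family, stood at 5.48 and 5.62 and then 7.54 and 7.01 in WT, against 4.15 and 4.28 and then 2.88 and 2.99 in KO. It rose 3.31-fold in WT and fell at least 1.16-fold in KO, where the treated level was not read. The interaction was 3.01 (adjusted p = 0.00106), or 1.94 with levels under 4 set to 4. Cmah, the enzyme that makes N-glycolylneuraminic acid, stood at 8.34, 8.25, 7.92 and 7.74 in WT and at 3.25, 3.09, 4.07 and 3.82 in KO. Only 1 KO array reached 4, so no fold is given for KO, and the interaction of -1.24 (adjusted p = 0.00791) did not pass when values under 4 were set to 4 (adjusted p = 0.0886) or with the mean of its probe sets (0.353), nor in the fit of the 4 groups alone (0.0638). These genes were chosen after their values were seen, with Hivep3, Mllt6 and Hk2.

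**Figure D4:**
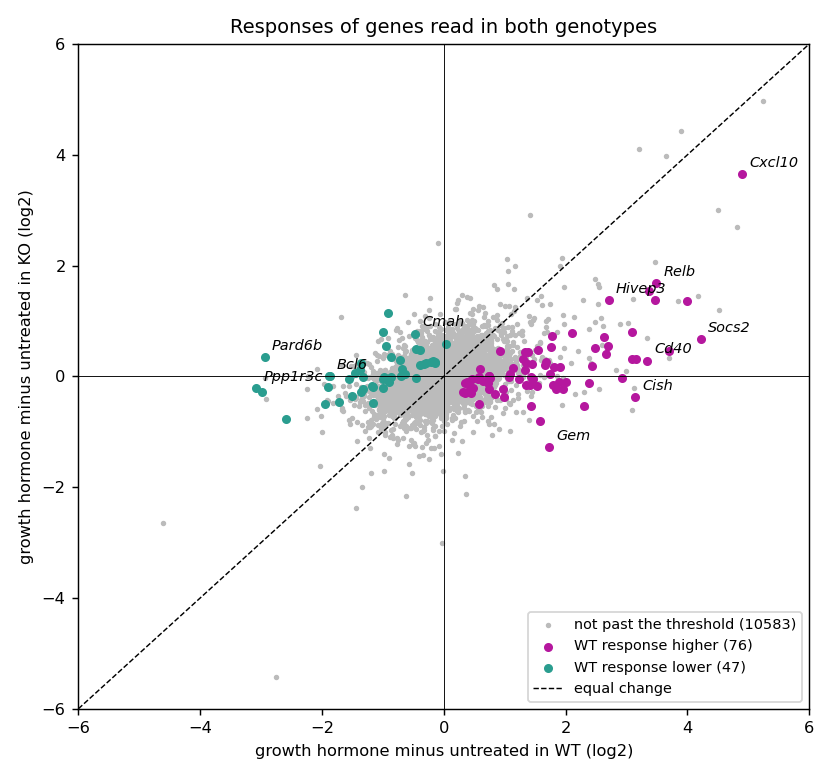
Change with growth hormone in WT (x axis, log2) against the change in KO (y axis, log2), for the 10706 genes read in both genotypes, without a floor. The 76 genes with a higher WT response (purple) lie below the dashed line of equal change, and the 47 with a lower one (green) above it.

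The changes behind the 76 higher genes came mostly from WT. In all 76 the WT change was the larger in size, 75 passed in WT and 5 in KO, and the median change was 1.5 in WT and -0.0 in KO. In 57 of them the untreated KO level lay within 1 log2 unit of the WT level. The interactions ranged from 0.45 to 3.55. Among the 47 lower genes the WT change was the larger in 38 and the KO change in 9, with medians of -0.98 and 0.01, and 27 had untreated levels within 1 log2 unit. An example of the KO side is Gxylt1, a glycosyltransferase chosen after its values were seen. It stood at 10.69, 10.65, 10.71 and 10.70 in WT and rose from 10.15 and 10.19 to 10.82 and 10.70 in KO (interaction -0.56, adjusted p = 0.0117; 0.0507 without untreated KO replicate 1, 0.0693 in the fit of the 4 groups alone and 0.0538 with arrays centred on their median).

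Pard6b, a subunit of the PAR polarity complex, had the largest value among the genes read in both genotypes with a lower WT response. It stood at 7.43 and 7.44 untreated and 4.87 and 4.12 treated in WT, against 7.82, 7.94, 8.52 and 7.95 in KO. It fell 7.68-fold in WT, and the interaction was -3.29 (SE 0.41, adjusted p = 0.0117; 0.0548 without untreated KO replicate 1 and 0.058 in the fit of the 4 groups alone). Ppp1r3c, a glycogen-targeting subunit of protein phosphatase 1, went from 8.27 and 8.79 to 4.98 and 5.93 in WT and stood between 11.14 and 11.47 in KO. Untreated KO cells were 2.87 above WT cells, and the interaction was -2.87 (adjusted p = 0.0241), kept only in the fits without 1 of the WT arrays. Arhgap20, a GTPase-activating protein, stood at 8.95, 8.81, 6.24 and 6.35 in WT and at 10.27, 10.27, 9.32 and 9.69 in KO. The treated arrays were lower in both genotypes, with a KO difference of -0.76 that did not pass (adjusted p = 0.094), and the interaction was -1.82 (SE 0.19, adjusted p = 0.00707).

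Wnt9a, a Wnt ligand, stood at 12.12, 11.91, 10.52 and 10.39 in WT and between 12.23 and 12.48 in KO (interaction -1.51, SE 0.17, adjusted p = 0.00859). Fzd8, a receptor of such ligands chosen after its values were seen, went from 9.88 and 9.86 to 8.97 and 8.80 in WT and stood between 10.95 and 11.05 in KO (-0.97, SE 0.11, adjusted p = 0.00819). In both genes the KO arrays with and without the hormone overlapped. Arhgap20, Wnt9a, Fzd8 and the clone-named gene 9930012K11Rik were the 4 of the 47 that kept the call in every alternative fit that tested them. The minimum difference of 1, which Fzd8 does not reach, is again left aside. Without each array in turn, 11 of 47 kept the call. Dact1, a modulator of Wnt signalling, had -1.15 (adjusted p = 0.0246), kept only without either untreated WT array or treated KO replicate 1. Prdm8, a histone methyltransferase of the PR domain family, had -1.50 (adjusted p = 0.0161). Lfng, a glycosyltransferase that modifies Notch, went from 7.95 and 8.43 to 7.32 and 7.08 in WT and from 6.02 and 6.27 to 7.03 and 6.85 in KO. Its interaction of -1.79 (adjusted p = 0.0156) was lost without untreated KO replicate 1 (0.0601) or treated KO replicate 1 (0.0527).

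Other genes named by rank on this side rested on calls near the threshold. Map3k4, a MAP kinase kinase kinase, had -1.21 (adjusted p = 0.0179), lost without treated WT replicate 2 or untreated KO replicate 2. Mtcl1, a microtubule protein, had -2.06, with neither the WT nor the KO change past the threshold. Pcyt1b, an enzyme of phosphatidylcholine synthesis, had -1.60, Htr2b, a serotonin receptor, -1.50, Cnksr3, a scaffold protein, -1.32, and Lrrtm1, a synaptic membrane protein, -1.27. The calls of Mtcl1, Pcyt1b, Htr2b, Cnksr3 and Lrrtm1 were kept in 2 or 3 of the 12 fits without 1 array. Bmp2, a growth factor of the TGF-beta family, was on the higher side with 2.38 (adjusted p = 0.0326; kept only without untreated WT replicate 1 or treated KO replicate 2). It stood at 4.37, 4.0, 5.94 and 5.58 in WT and at 9.04, 9.41, 8.11 and 8.72 in KO, so that its level was far higher in KO throughout.

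Of the 67 higher genes read in WT only, 27 belong to the NF-kB, interferon and macrophage activation lists. Saa3, an acute-phase protein, stood at 3.10 and 2.93 and then 12.20 and 12.26 in WT, and between 2.46 and 3.66 in KO. Il1b, interleukin 1 beta, stood at 2.35 and 2.49 and then 11.81 and 11.76, and between 2.22 and 2.27 in KO. In both genes only the treated WT arrays were read, which makes the WT rise at least 300.0-fold for Saa3 and at least 221-fold for Il1b. Tnf went from 2.03 and 3.26 to 10.46 and 10.75 in WT, at least 97.6-fold, and Cd69, an activation marker of leukocytes, rose 70.4-fold. Clec4e, a receptor of myeloid cells, and Ccl4, a chemokine, had untreated WT duplicates that differed by more than 1 log2 unit. Clec4e stood at 2.29 and 4.77 before and at 11.40 and 11.65 after the hormone, and Ccl4 at 2.02 and 4.25 before and 10.99 and 10.60 after. Their KO arrays lay between 1.94 and 2.30. Of the 67 higher genes read in WT only, 8 had untreated WT duplicates this far apart. Leaving aside the minimum difference of 1, 44 of the 90 genes read in WT only kept the call in every alternative fit that tested them.

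Macrophage activation genes, which phagocytes switch on when stimulated, were called higher for 10 of 25 measured members, 8 of them read in WT only and Cd40 and Sod2 in both, against 0.846% of all genes and 67 of the 619 genes read in WT only. The Sod2 call (0.71, adjusted p = 0.0394) was kept only without untreated S5 replicate 1 or 2 and was lost with array weights (0.199). Interferon response genes were called higher for 9 of 33, of which 6 were read in WT only and Irf1, Ifi47 and Cxcl10 in both. Marco, a scavenger receptor of macrophages, stood at 1.54 and 1.52 and then 8.48 and 8.29 in WT, and Cxcl11, an interferon-induced chemokine, at 2.39 and 2.40 and then 6.95 and 7.10. Both stayed between 1.5 and 2.42 on the KO arrays, so only treated WT arrays read them. Over the NF-kB, interferon and macrophage activation lists, which share no gene, 40 of 96 members were higher (0.846% of all genes were). Of these 40, 27 were read in WT only and 13 in both. Among all genes of those classes, 10.8% and 0.71% were higher. The lists were chosen with earlier results of these data known, so these counts are descriptions only. No member of the 3 lists was lower. None of the 16 macrophage markers themselves passed in the interaction with all arrays, and 9 of them were read in WT only. The fit without untreated WT replicate 2 leaves the WT array of lower marker level as the only untreated one. There the interaction was 1.87 for Ptprc, 2.33 for Adgre1 and 2.11 for Fcer1g, against 0.87, 1.38 and 1.05 with all arrays. For Spi1 it was 0.96 without treated WT replicate 1 and 2.52 without treated WT replicate 2. The Spi1 group means lay below 4, at 2.02 in untreated WT, 3.76 in treated WT and 1.94 in both KO groups.

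The genes read in WT only that fell were led by Slc14a1, a urea transporter, Palmd, a protein of the paralemmin family, Wscd2 and Gpm6a, a neuronal membrane glycoprotein. Slc14a1 went from 6.64 and 6.86 to 4.42 and 4.34 in WT, a 5.16-fold fall, and stood between 2.35 and 2.82 in KO (interaction -2.12, adjusted p = 0.00938; 0.0761 with the mean of its probe sets). Palmd went from 6.26 and 6.20 to 3.59 and 3.49, at least 4.69-fold lower. The 23 genes of this kind had a median WT change of -1.75, and 1 of them had an untreated KO level within 1 log2 unit of WT. Ptger3, a receptor of prostaglandin E2, and Tox3, an HMG-box protein, were the 2 genes read in KO only. Ptger3 stood at 5.43 and 4.77 untreated and 2.59 and 3.05 treated in KO and between 2.43 and 2.52 in WT. It fell at least 2.14-fold in KO, and the interaction was 2.23 (adjusted p = 0.0188; 0.0672 with values under 4 set to 4, and lost without either untreated S5 array or either treated WT array). Tox3 reached 4 on 1 treated KO array only.

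S5 cells, which carry STAT5A on the Stat5-null background, gave levels of the same genes that do not enter the contrast, described here by sizes and signs. The S5 duplicates share its estimate of spread, so they had a part in which genes were called. In the fit without the S5 arrays, 30 of the 76 higher and 10 of the 47 lower genes kept the call. Of the 76 higher genes read in WT and KO, 71 were also read in S5, and 52 of these (73.2%) rose there, against 45.9% of the 10369 genes read in all 3 kinds of cells. A rise of at least 2-fold was seen in 21 of 71 (29.6%; 2.22% of the 10369 genes), and 1 gene fell by as much. Of the 47 lower genes, 41 were read in S5 and 29 (70.7%) fell, against 53.7%. A fall of 2-fold or more was seen in 4 of 41 (9.76%; 2.1%). Of the 67 higher genes read in WT only, just 8 were read in S5.

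Cish, Socs2 and Bcl6 changed in S5 in the direction they had in WT. Cish went from 3.45 and 3.55 to 9.33 and 9.17, at least 38.1-fold, Socs2 rose 22.8-fold and Bcl6 fell 2.33-fold (adjusted p = 4.29e-06, 4.29e-06 and 0.000868; 7.88% of genes passed in S5, 3.63% higher). Irf1 rose 4.38-fold, Ifi47 at least 8.03-fold and Gbp7 7.52-fold. Fas rose 1.93-fold, from 10.60 and 10.63 to 11.64 and 11.48, where WT rose 5.19-fold. Cd40 and Il15ra were not read in S5, with all 4 arrays between 1.85 and 3.57. Among the lower genes Ppp1r3c fell 3.78-fold and Pcyt1b 2.36-fold, whereas Dact1, lower in WT, rose 1.77-fold (adjusted p = 0.00861). Bmp2, which rose in WT, fell 4.35-fold in S5 and was the gene among the 76 that moved by 2-fold or more against WT. Slc14a1, a gene read in WT only and chosen after its values were seen, which fell 5.16-fold in WT, rose 2.27-fold in S5 (adjusted p = 0.00924). The mean of the macrophage markers lay between 2.84 and 3.13 on the S5 arrays, and that of the fibroblast markers between 11.63 and 12.02, below the WT and KO arrays. The log2 difference between the probe set ends was 1.44 to 1.62 for Gapdh, above the WT and KO arrays, and 3.04 to 3.15 for Actb. The part of these differences in the S5 values was not tested.

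**Figure D5:**
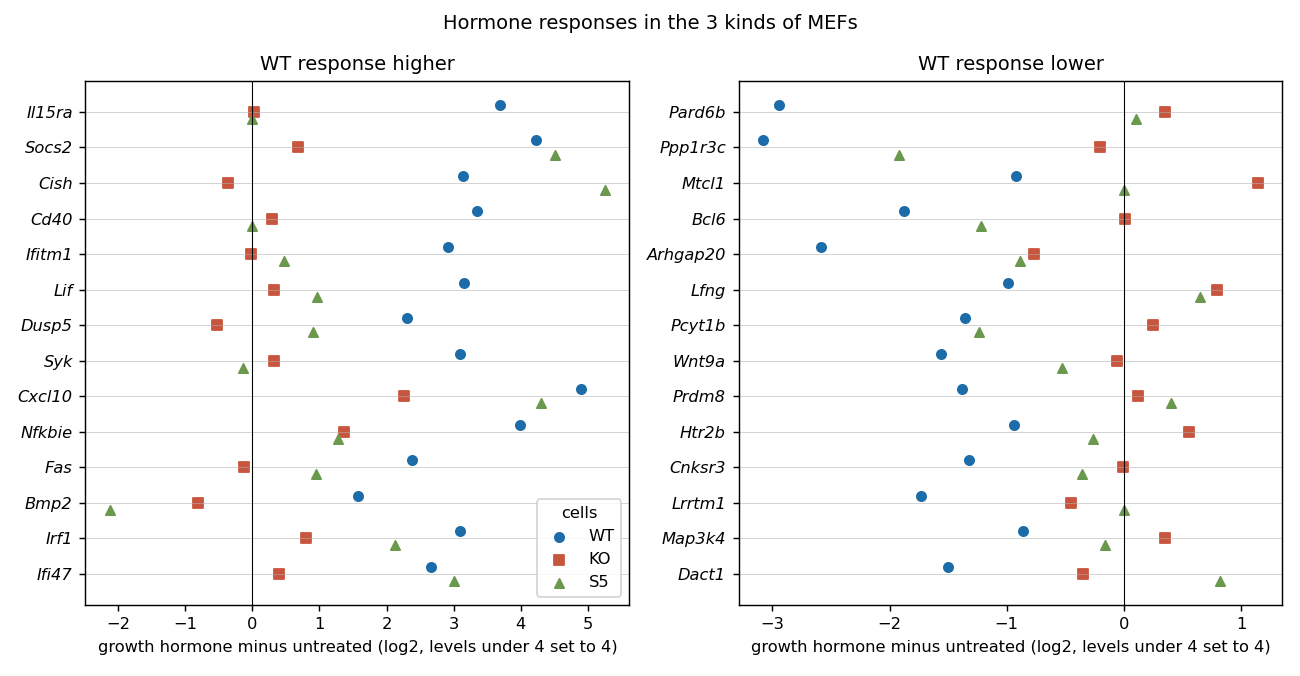
Hormone response (x axis, log2 with levels under 4 set to 4) of the 14 highest and 14 lowest genes by rank among those read in both genotypes, in WT (circles), KO (squares) and S5 (triangles). Cish, Socs2 and Ifi47 stand as far to the right in S5 as in WT or farther, while Cd40 and Il15ra stand at 0.

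Lists outside the immune system are set beside the shares over all genes, 0.846% called higher and 0.423% called lower. At such shares a short list can hold no call without differing from all genes. None of the 19 cell cycle genes, 20 genes of the ATF4 and unfolded protein responses, 14 genes of the IGF system, 14 genes of sterol and lipid synthesis or 16 Krueppel-like factor and clock genes passed, with medians of -0.11, 0.09, 0.1, -0.08 and -0.3. The same was true of 14 fibroblast markers (-0.03). Of 32 immediate early genes, 2 were higher, Dusp5 and Ier3, an early response gene of stressed cells (2.07, adjusted p = 0.0401, kept in 3 of the 12 fits without 1 array). Fas was the 1 called gene of 18 p53 and arrest genes. Of 24 matrix and protease genes Mmp10, a stromelysin read in WT only, was higher (2.51, adjusted p = 0.00161) and Adamts1, a versican-cleaving protease, lower (-0.79, adjusted p = 0.0423). Of 28 TGF-beta, BMP, Wnt and hedgehog genes, Bmp2 was higher and Bmp4 lower (-0.67, adjusted p = 0.0435). The calls of Adamts1 and Bmp4 were kept in 2 and 1 of the 12 fits.

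Promoter sequence was at hand for 14451 of the 18194 genes, from 250 bases before to 50 after the start. The STAT palindrome was found in 11 of 63 promoters of higher genes read in both genotypes (17.5%), against 8.1% of the 8743 promoters of all genes read in both. It was found in 4 of 40 promoters of lower genes (10%) and in 3 of 51 of higher genes read in WT only (5.88%). The NF-kB motif was found in 14 of 63 (22.2%), 3 of 40 (7.5%) and 15 of 51 (29.4%), against 12.5%. Irf1 held both motifs, and only the STAT match is marked in its sequence above. These shares are descriptions of letters in a window, with no test.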

How the data were processed

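Expression was measured in 12 samples of total RNA, of which 8 enter the contrast. Values deposited by the authors were taken as log2 expression levels. They were made with GCOS and RMA, per the submitters' processing notes, which give no settings, and the scale was inferred from the value range of 0.99 to 15.95. Of 45101 probe sets, 64 controls, 9160 without a gene and 932 with several genes were left out. The other 34945 covered 18194 genes, each represented by its probe set of highest mean across all 12 arrays.

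All 12 arrays were fitted with limma 3.58.1 (R 4.3.3) as 6 group means, with 6 residual and 1.2 prior degrees of freedom. Tests are limma's moderated tests, two-sided, with Benjamini-Hochberg adjustment over 18194 genes at 0.05, and intervals are 95%. The S5 arrays enter the interaction through the shared variance only. The fit was tested on simulated data. A group was not read where both its arrays lay below 4, and a genotype where both its groups were not read. Folds with such a group use 4 in its place and are lower bounds, while p-values use the deposited values.

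The members, the 20 gene lists and the bound of 4 were chosen with earlier results of these data known. Named were the 14 highest and 14 lowest called genes read in both genotypes, without clone-named genes, ranked with group means below 4 set to 4. Also named were the 6 highest and 4 lowest read in WT only, those read in KO only (up to 3 each way), up to 5 of each list, and Stat5a, Stat5b, Ghr, Jak2, Cish, Socs2, Socs3, Igf1, Bcl6 and Pim1. Genes outside this rule are marked in the text. Genes without a row in the table are not analysed here. Alternatives were other probe set rules, variance models, normalizations, floors, a replicate block and each array left out. Duplicates correlated with r between 0.988 and 0.996 across genes, which are not independent replicates. No depth applies to arrays, and their number limits the precision.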

Additional observations from a re-analysis of the deposited data

Results flagged for a closer look

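The responses of the genotypes differed, by the interaction term itself, in 231 genes. Among genes that passed in both genotypes, Gem had an interaction of 3.01 and Cmah of -1.24, with opposite directions in WT and KO. The KO changes rest on levels that were not read, a mean of 2.93 in treated KO for Gem and 3.17 in untreated KO for Cmah. With values below 4 set to 4 the Cmah interaction did not pass (limma adjusted p = 0.0886). A signal also lay in probe sets outside the tests by gene. Of 10092 probe sets listed with no gene or with several, 11 had a higher WT response and 4 a lower one, and 5 and 2 of these were read in both genotypes.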

How the results depend on the processing

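No called gene named here changed sign in any fit. Counts were 231 in all, 154 higher, 77 lower, and 76 higher and 47 lower among genes read in both, with 1092 calls for the WT response, 56 for KO, 1433 for S5 and 4935 for KO minus WT. In the order all, higher, lower, higher in both and lower in both, the fit of the 4 groups alone gave 116, 89, 27, 34 and 16 (WT 620, KO 13), and array weights 125, 86, 39, 27 and 17 (KO 10, S5 2914). Testing only genes with all 4 group means at or above 4 gave 88, 62, 26, 62 and 26 over fewer genes, with 8 NF-kB, 2 interferon and 1 macrophage activation gene. A minimum difference of 1 left 49 lower, 24 lower in both, WT 465, KO 24, S5 419 and KO minus WT 2061. Lower genes read in both numbered 27 with a trended prior and 29 with every probe set tested. Values under 4 set to 4 gave KO 85. The replicate block gave 174 calls (29 lower in both, KO 32). The numbers did not pair the arrays (correlation of deviations -0.05 between the WT groups and -0.38 between the KO groups). A crossed block, added after seeing the data, gave 202, and KO 51.

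Leaving out 1 array gave 150 to 355 calls, 105 to 230 higher, 45 to 146 lower, 39 to 88 higher and 25 to 49 lower in both. It gave 547 to 1143 for WT, 20 to 140 for KO, 552 to 1536 for S5, 3518 to 5125 for KO minus WT, 15 to 21 NF-kB, 8 to 11 interferon and 8 to 12 macrophage activation genes. Counts moved by over 1.5 times without either untreated S5 array (150 calls, KO 20), untreated KO replicate 1 (39 higher and 25 lower in both), untreated WT replicate 2 (355), untreated WT replicate 1 (146 lower), treated WT replicate 2 (44 higher in both, WT 547) and treated KO replicate 1 (KO 140). Duplicates of 2 limit every value, and signal below 4 limits the KO side of 90 calls.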

Other observations

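Values of 5 further genes, chosen after they were seen and from no list, follow. Rfx5, a factor that turns on MHC class II genes, stood at 11.54, 11.59, 12.02 and 12.04 in WT and between 11.61 and 11.67 in KO, an interaction of 0.51 (SE 0.06, adjusted p = 0.0105) kept in all 12 fits without 1 array but lost with array weights (0.0702), with values under 4 set to 4 (0.0517) and with only genes at or above 4 (0.104). Psmb10, an immunoproteasome subunit, stood at 10.06, 9.87, 11.25 and 11.39 in WT and at 10.11, 9.85, 10.14 and 10.33 in KO (1.10, adjusted p = 0.0303). H2-K1, a heavy chain of MHC class I, had 0.85 (adjusted p = 0.0372), and Tapbp, the chaperone that loads its peptides, 0.55 (adjusted p = 0.0417). Other H2-K1 probe sets read in both genotypes gave 0.78 and 0.05. The mean of all H2-K1 probe sets gave 0.41, which did not pass (limma adjusted p = 0.129). The calls of Psmb10, H2-K1 and Tapbp were kept in 2 or 3 of the 12 fits. Psmb8, a related subunit, was read in WT only and rose there 4.04-fold (interaction 1.95, adjusted p = 0.00717; 0.058 in the fit of the 4 groups alone).

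Some genes read in WT but not in KO were also read in S5, and are given as values chosen after they were seen. Cyp26b1, which degrades retinoic acid, stood at 3.54 and 2.90 and then 7.37 and 8.01 in WT, between 2.70 and 3.39 in KO, and at 3.51 and 3.34 and then 6.57 and 6.94 in S5. It rose at least 12.9-fold in WT and at least 6.75-fold in S5. Steap4, a metalloreductase, rose at least 3.61-fold in WT and at least 2.8-fold in S5, and Slco5a1, a transporter of the organic anion family, at least 1.56-fold and at least 4.15-fold. In these 3 genes the arrays read were those with the hormone in WT and S5, and no KO array reached 4. Rsph3a, a radial spoke protein read in both genotypes, stood at 5.31, 5.23, 7.17 and 6.85 in WT and between 5.23 and 5.48 in KO. It rose 3.34-fold in WT and 13.2-fold in S5, from 7.61 and 7.25 to 11.16 and 11.14. Its interaction of 1.71 (adjusted p = 0.0117) was lost with array weights (0.0683).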
